A study of Mus musculus with 12 samples.

Results

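The phosphofructokinases and the enzymes that set their activity were followed in hearts of mice heterozygous for hexokinase II. The group holds 8 genes, taken by symbol from the count tables: the phosphofructokinases Pfkm, Pfkl and Pfkp, the bifunctional enzymes Pfkfb1, Pfkfb2, Pfkfb3 and Pfkfb4, and the muscle fructose bisphosphatase Fbp2. They are 8 of the 24061 symbols listed, and all 8 passed the filter on low counts. The RNA came from hearts of male C57BL/6J mice between 2 and 4 months old, kept on chow, of which 6 were HKII+/- (replicates 11, 12, 16, 19, 20 and 22) and 6 were HKII+/+ (replicates 13, 14, 15, 17, 18 and 21). The comparison asks how transcripts of this control point stood when the gene dose of hexokinase II was lowered. How the HKII allele was made is not given in the sources used here. HKII+/- replicate 11 and HKII+/+ replicate 13 carry a note as possible outliers from the submitters, so values are given over all 12 libraries and over the 10 unmarked ones (n = 5 per genotype).

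Phosphofructokinase converts fructose 6-phosphate to fructose 1,6-bisphosphate, the committed step of glycolysis, and works as a tetramer of muscle (Pfkm), liver (Pfkl) and platelet (Pfkp) subunits. Its strongest activator is fructose 2,6-bisphosphate, which the bifunctional Pfkfb enzymes both make and break down with separate kinase and phosphatase domains. Pfkfb2 is known as the heart form, and its kinase activity rises when AMPK or insulin-stimulated kinases phosphorylate it. Pfkfb3 has by far the stronger kinase than phosphatase activity and is induced by hypoxia, Pfkfb1 is known from liver and skeletal muscle, and Pfkfb4 from testis. Fbp2 runs the phosphofructokinase reaction backwards and is itself inhibited by fructose 2,6-bisphosphate.

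All 8 genes are protein coding in the GENCODE vM21 annotation of GRCm38, the assembly named by the submitters' processing notes. Pfkm (ENSMUSG00000033065.14) lies at chr15:98092589-98132451 on the plus strand. Pfkl (ENSMUSG00000020277.10) lies at chr10:77986947-78010083 and Pfkp (ENSMUSG00000021196.14) at chr13:6579768-6648777, both on the minus strand. Pfkfb1 (ENSMUSG00000025271.13) lies at chrX:150588229-150643878 on the plus strand and Pfkfb2 (ENSMUSG00000026409.14) at chr1:130689182-130729253 on the minus strand. Pfkfb3 (ENSMUSG00000026773.19) lies at chr2:11471433-11554077 on the minus strand and Pfkfb4 (ENSMUSG00000025648.18) at chr9:108991778-109032228 on the plus strand. Fbp2 (ENSMUSG00000021456.8) lies at chr13:62836877-62858422 on the minus strand. Some exons are shared with other genes: 5.58% of the exon bases of Pfkp overlap Pitrm1, 3.06% of those of Pfkfb1 overlap Apex2 and 2.12% of those of Pfkfb2 overlap Yod1, each on the opposite strand. The strand setting of the counting is not given in the sources used here, so reads from those stretches cannot be assigned to either gene. On the same strand, Gm29427 shares 17.4% of the exon bases of Pfkfb2 and Gm26513 shares 10.2% of those of Pfkm. Neither symbol is among those counted, and how shared reads were treated is not given.

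The promoters were searched for CACGTG, an E-box read by basic helix-loop-helix factors such as USF and MYC, and the stretches that hold it are shown because they are what the promoters of Pfkm, Pfkfb2, Pfkfb3 and Fbp2 share in this search. The windows were the 250 bases before each RefSeq start site on GRCm38.p6, 17 windows for the 8 genes. The motif reads the same on both strands and contains ACGTG, the core of the hypoxia response element. CACGTG was found in 4 of the 17 windows, 1 each for Pfkm, Pfkfb2, Pfkfb3 and Fbp2, and in 6.02% of the 32851 windows of all genes. By gene that is 4 of 8, beside 6.86% of 27025 symbols. The members had more windows per gene (17 for 8) than all symbols (32851 for 27025), which widens the contrast by gene. ACGTG, searched on both strands, was found in 7 of the 17 windows, which belong to the same 4 genes, and in 16.6% of all windows. The 4 windows with CACGTG are among these 7 by its letters alone. Of all symbols, 18.5% had ACGTG in a window. The stretches around the E-box are printed on the strand of each gene with the motif in capitals:
Pfkm (chr15:98092433-98092478): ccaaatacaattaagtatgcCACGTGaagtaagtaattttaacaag
Pfkfb2 (chr1:130715822-130715863): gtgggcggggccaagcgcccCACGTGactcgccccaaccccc
Pfkfb3 (chr2:11502118-11502163): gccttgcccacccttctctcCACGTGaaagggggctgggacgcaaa
Fbp2 (chr13:62858417-62858462): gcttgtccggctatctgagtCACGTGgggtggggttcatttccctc

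The first base of the motif lies 136 bases before the start site in Pfkm, 22 in Pfkfb2, 53 in Pfkfb3 and 42 in Fbp2. A match describes these letters only; no binding was measured. No member passed the test by genotype, and the genes with and without the motif are therefore described together.

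Deposited counts summed to between 17263209 and 51556592 per library. Hk2, which encodes hexokinase II, averaged 338.3 ± 118 in HKII+/- and 532.9 ± 64.4 in HKII+/+ hearts, in CPM (SD over 6 libraries each). Without the marked libraries it averaged 292.3 ± 40.6 in HKII+/- and 509.0 ± 29.6 CPM in HKII+/+ animals (SD, n = 5 each). The library labelled HKII+/- replicate 11 measured 568.2 CPM, above the 471 to 542.5 CPM of the unmarked HKII+/+ libraries and below the 652.6 CPM of HKII+/+ replicate 13. CPM are counts in parts per 1e+06 of the library total, the total being first multiplied by a trimmed-mean (TMM) factor, which was 0.787 in that library, 0.760 in HKII+/+ replicate 13 and 0.992 to 1.09 in the others. The place of replicate 11 for Hk2 depends on this factor. Without it, replicate 11 lay below every unmarked HKII+/+ library and above every other HKII+/- library. Genes listed as ventricular cardiomyocyte markers (7 genes, some of them also made in atria) were abundant in every library. They summed to 64222 to 88836 CPM in the unmarked libraries, 180940 CPM in replicate 11 and 203280 CPM in replicate 13. Atrial markers (6 genes) summed to 338.5 CPM in HKII+/- replicate 19 and 436.7 CPM in HKII+/- replicate 22, against 2512 to 7239 CPM in the other unmarked libraries. Markers of skeletal muscle (7 genes) summed to 1.84 to 11.8 CPM in HKII+/- and 3.51 to 6.30 CPM in HKII+/+ libraries. Those of endothelium (5 genes) summed to 972 to 1172 CPM in HKII+/- and 949 to 1202 CPM in HKII+/+ libraries. In both marked libraries this sum held opposite shifts. Pecam1, Cdh5 and Emcn (1.66 CPM in replicate 11 and 4.79 CPM in replicate 13, against 34.2 to 41.0 CPM) lay below every unmarked library. Tie1 lay above all of them (455 and 447 CPM, against 168 to 213 CPM). In bulk tissue, fewer cells of a type and less RNA per cell cannot be told apart.

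Levels were compared between genes in CPM per kilobase of annotated exon (the union of all transcripts), over the 10 unmarked libraries. Pfkm stood far above the rest, at 409 ± 39.9 CPM per kb (SD, n = 10). Pfkfb2 followed at 35.5 ± 4.19 and Pfkl at 28.3 ± 2.77 CPM per kb. Fbp2 reached 17.1 ± 2.09 and Pfkp 6.53 ± 0.620 CPM per kb. Pfkfb3 at 3.38 ± 0.698 and Pfkfb1 at 2.93 ± 0.853 CPM per kb came next, and Pfkfb4 was lowest at 1.04 ± 0.166 CPM per kb. The ranges of Pfkfb3 and Pfkfb1 overlapped, and Pfkfb3 was the higher in 5 of the 10 libraries, so on this scale these neighbours did not differ beyond their spread. The ranges of Pfkfb2 (29.4 to 42.0) and Pfkl (25.2 to 34.4) overlapped too, although Pfkfb2 was the higher in 10 of 10 unmarked libraries and in neither marked one. No other neighbours overlapped. Per kilobase of coding sequence the order was the same except that Pfkp (33.3 ± 3.16 CPM per kb) stood above Fbp2 (24.7 ± 3.02 CPM per kb), with overlapping ranges. On the coding scale Pfkfb3 (14.4 ± 2.97 CPM per kb) was above Pfkfb1 (8.16 ± 2.38 CPM per kb) in 10 of 10 unmarked libraries, so their order depends on the length used.

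Pfkm, the muscle subunit, did not differ by genotype beyond the spread between libraries. It measured 1183 CPM at the lowest, 1401 at the median and 1912 at the highest in HKII+/- hearts, against 1309, 1357 and 2732 CPM in HKII+/+ hearts. The highest value of each genotype was the marked library, and the groups overlapped. Without the trimmed-mean factor, Pfkm was highest in replicate 22 among HKII+/- libraries (1652 CPM, against 1502 CPM in replicate 11). Its highest HKII+/+ value stayed that of replicate 13 (2075 CPM). Its log2 fold change, HKII+/- over HKII+/+, was -0.11 (SE 0.21, 95% interval -0.56 to 0.35, edgeR quasi-likelihood test, adjusted p = 1). Over the 10 unmarked libraries it averaged 1380 ± 192 in HKII+/- and 1350 ± 48.2 CPM in HKII+/+ animals (SD, n = 5 each), a log2 fold change of 0.033 (SE 0.086). The interval then ran from 89.8% to 117% of the HKII+/+ level. The coefficient of variation among unmarked libraries was 13.9% in HKII+/- and 3.57% in HKII+/+ hearts, and this difference in spread was not tested.

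Pfkl, the liver subunit, measured 168.5, 194.2 and 569.3 CPM (lowest, median and highest) in HKII+/- hearts, against 174.2, 188.0 and 494.9 CPM in HKII+/+ hearts. Again the marked libraries held both maxima, while the unmarked ones ranged up to 229.4 CPM in HKII+/- and up to 192.8 CPM in HKII+/+ animals. The log2 fold change was 0.10 (SE 0.37) over 12 libraries and 0.050 (SE 0.082, 95% interval -0.13 to 0.23) over 10. Pfkp, the platelet subunit, measured 72.9, 84.8 and 98.8 CPM in HKII+/- hearts, against 81.5, 89.4 and 111 CPM in HKII+/+ hearts. Its log2 fold change was -0.11 (SE 0.11) over 12 libraries and -0.059 (SE 0.082, 95% interval -0.24 to 0.12) over 10. Its coefficient of variation over all libraries, 10.6% in HKII+/- and 11.6% in HKII+/+ hearts, was the lowest of the 3 subunits. Among unmarked HKII+/+ libraries it was instead the highest, 7.46%, against 3.57% for Pfkm and 3.78% for Pfkl. Among unmarked HKII+/- libraries it was again the lowest, 11.8%, against 13.9% for Pfkm and 13.7% for Pfkl. Without the trimmed-mean factor, the value over all HKII+/- libraries was 12.9% for Pfkp, above the 8.83% of Pfkm. In the other sets of libraries Pfkp kept its place.

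HKII+/- replicates 19 and 22, the libraries with low atrial markers, held the highest unmarked Pfkm (1473 and 1666 CPM) and the highest unmarked Pfkl (209 and 229.4 CPM). They also held the upper sums of the list named ventricular, 81658 and 88836 CPM, against 64222 to 77241 CPM in the other unmarked libraries. Most of that sum was Myh6 (43704 and 48159 CPM), and the list is not limited to genes of the ventricle. Myl2, Myl3, Myh6, Tnnt2 and Actc1 were highest in these libraries among the unmarked ones. Ryr2 was not, and neither was Tnni3 in replicate 22. Without them and the marked libraries, the log2 fold change of Pfkm was -0.10 (SE 0.054) and that of Pfkl -0.093 (SE 0.048). The adjusted p of both was then 0.719 in edgeR's test, with 3 HKII+/- and 5 HKII+/+ libraries. The part of atrial tissue in these levels was not tested.

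**Figure D1:**
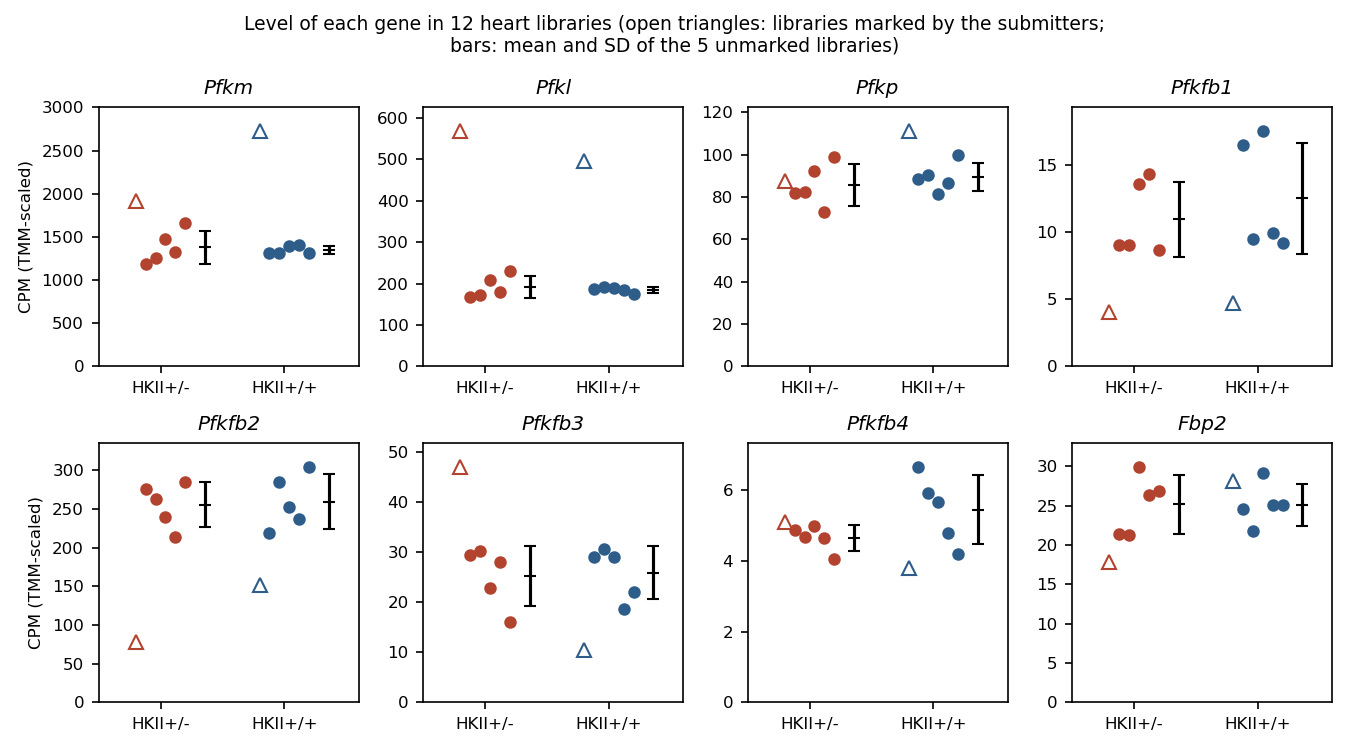
Level of each of the 8 genes in TMM-scaled CPM (vertical axes, each starting at 0) in HKII+/- and HKII+/+ hearts, 1 point per library, with open triangles for the marked libraries and bars for the mean and SD of the 5 unmarked libraries of each genotype. The genotypes overlap in every panel, and the triangles of Pfkl (569.3 CPM in HKII+/- replicate 11 and 494.9 CPM in HKII+/+ replicate 13) lie far above the unmarked libraries.

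Pfkfb2, the heart form of the bifunctional enzyme, was the most abundant of its family in every library. It measured 78.6, 252 and 285 CPM (lowest, median and highest) in HKII+/- hearts, against 151, 245 and 305 CPM in HKII+/+ hearts. The marked library was the lowest of each genotype. The log2 fold change was -0.096 (SE 0.27) over 12 libraries and -0.021 (SE 0.10, 95% interval -0.25 to 0.21) over 10. Among unmarked hearts the means were 255.4 ± 28.8 CPM in HKII+/- and 259.4 ± 35.2 CPM in HKII+/+ (SD, n = 5 each).

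Pfkfb3, the form with the dominant kinase, measured 15.9, 28.6 and 47.0 CPM in HKII+/- hearts, against 10.5, 25.5 and 30.6 CPM in HKII+/+ hearts. Here the marked libraries fell on opposite sides: the library labelled HKII+/- replicate 11 was the highest of its genotype and HKII+/+ replicate 13 the lowest. The log2 fold change of 0.31 (SE 0.29, 95% interval -0.32 to 0.93) over 12 libraries became -0.045 (SE 0.18, 95% interval -0.44 to 0.35) over 10. The lowest unmarked values were 15.9 CPM in HKII+/- replicate 22 and 18.6 CPM in HKII+/+ replicate 18, where atrial markers summed to 436.7 and 4293 CPM. Within the sum of replicate 18, Bmp10 had 0 counts. Its Nppa, Myl4, Myl7, Sln and Dkk3 lay within the range of the other unmarked HKII+/+ libraries. HKII+/- replicate 19, with the lowest atrial sum, measured 22.8 CPM. That sum was lowest through Nppa alone, at 268 CPM against 431 CPM in replicate 22. Myl4, Myl7, Sln, Bmp10 and Dkk3 were all lower in replicate 22 than in replicate 19. The part of atrial tissue in the Pfkfb3 level was not tested.

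Pfkfb1, the liver and muscle form, measured 4.04, 9.07 and 14.4 CPM in HKII+/- hearts, against 4.72, 9.71 and 17.6 CPM in HKII+/+ hearts. The unmarked libraries fell apart into higher and lower ones within both genotypes. HKII+/- replicates 19 and 20 and HKII+/+ replicates 14 and 17 lay between 13.6 and 17.6 CPM, and the other unmarked libraries between 8.70 and 9.93 CPM. Its log2 fold change was -0.20 (SE 0.34) over 12 libraries and -0.21 (SE 0.22, 95% interval -0.69 to 0.27) over 10. Its counts ran from 72 to 640 per library.

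Pfkfb4, known from testis, was the scarcest member, with 58 to 258 counts per library. It measured 4.05, 4.78 and 5.10 CPM in HKII+/- hearts, against 3.80, 5.24 and 6.67 CPM in HKII+/+ hearts. Over 12 libraries the log2 fold change was -0.14 (SE 0.15). Over the 10 unmarked libraries the means were 4.65 ± 0.366 in HKII+/- and 5.45 ± 0.972 CPM in HKII+/+ animals (SD, n = 5 each). The fitted log2 difference was -0.24 (SE 0.12, 95% interval -0.51 to 0.027). That estimate is 84.6% of the HKII+/+ level with an interval from 70.2% to 102%, and its adjusted p in edgeR's test was 1. It was the smallest unadjusted p among the 8 genes over the unmarked libraries, 0.0737. HKII+/+ replicate 14 was the highest library, and without it and the marked libraries the log2 fold change was -0.16 (SE 0.12).

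Fbp2, the muscle fructose bisphosphatase, measured 17.9, 23.9 and 30.0 CPM in HKII+/- hearts, against 21.8, 25.1 and 29.2 CPM in HKII+/+ hearts. The log2 fold change was -0.097 (SE 0.14) over 12 libraries and 0.0035 (SE 0.10, 95% interval -0.22 to 0.23) over 10. Without the marked libraries the means stood at 25.2 ± 3.77 in HKII+/- and 25.1 ± 2.65 CPM in HKII+/+ animals (SD, n = 5 each).

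Across the 8 genes, none passed an adjusted p of 0.05 in edgeR's quasi-likelihood test over 12 libraries, and 0% of the 14107 genes tested did. None passed at an unadjusted p under 0.05 either, where 0.262% of all genes (37) did. DESeq2 and limma voom without quality weights also called 0 genes over 12 libraries, with 115 and 33 at an unadjusted p under 0.05. No member separated the genotypes without overlap, as 0.0213% of all genes did. Over the 10 unmarked libraries 0 of 8 members and 0.00707% of 14139 genes were called, and the gene called was Hk2. At an unadjusted p under 0.05 the counts were 0 of 8 members and 2.8% of all genes, and 0 of 8 members and 0.474% of all genes had genotypes that did not overlap. The sign was negative for 6 of 8 members over 12 libraries, where 50.5% of all genes were negative, and for 5 of 8 over 10 libraries, where 52.7% were. The median log2 fold change of the members was -0.10 over 12 libraries and -0.033 over 10, beside -0.0013 and -0.0046 for all genes. The p-values measure the spread between these libraries, since nothing beyond separate titles says how the animals were drawn.

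**Figure D2:**
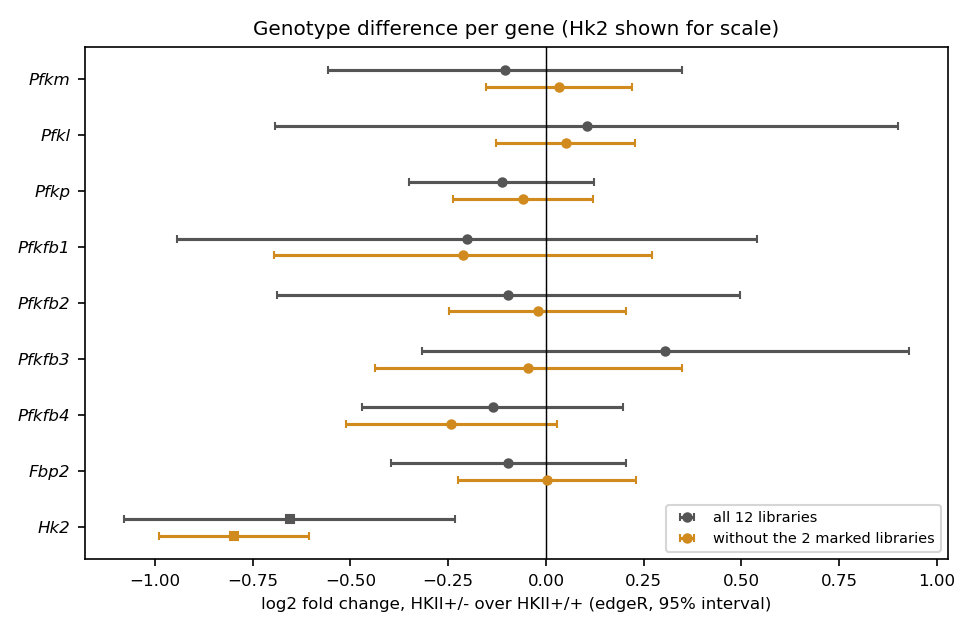
Log2 fold change of each gene, HKII+/- over HKII+/+ (horizontal axis), with its 95% interval from edgeR's quasi-likelihood fit, over all 12 libraries and over the 10 unmarked ones. Every interval of the 8 genes includes 0, and those over 10 libraries are the narrower, with Pfkm at 0.033 and Pfkfb4 at -0.24.

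The make-up of the phosphofructokinase pool was dominated by the muscle subunit in both genotypes. As shares of counts per kilobase of exon, Pfkm held 91.2 ± 2.45% in HKII+/- and 91.9 ± 0.607% in HKII+/+ hearts (SD, n = 6 each, as for the other shares). Pfkl held 7.48 ± 2.63% in HKII+/- and 6.65 ± 0.814% in HKII+/+ hearts. Pfkp made up the rest, 1.36 ± 0.215% in HKII+/- and 1.42 ± 0.281% in HKII+/+ hearts. Among unmarked libraries the Pfkm share ran from 91.9% to 92.5% in HKII+/- and from 91.7% to 92.5% in HKII+/+ hearts. In HKII+/- replicates 19 and 22, where both levels were highest among unmarked libraries, the shares lay with the others, at 92.0% and 92.3% for Pfkm and 6.53% and 6.36% for Pfkl. By coding length the Pfkm share was 81.3% in HKII+/- and 82.4% in HKII+/+ hearts.

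The bifunctional pool was mostly Pfkfb2. It held 78.8 ± 11.3% in HKII+/- and 82.8 ± 4.34% in HKII+/+ hearts (SD, n = 6 each). Pfkfb3 held 12.0 ± 10.2% in HKII+/- and 7.54 ± 1.67% in HKII+/+ hearts. Pfkfb1 held 6.37 ± 2.02% in HKII+/- and 6.91 ± 2.61% in HKII+/+ hearts. Pfkfb4 held 2.81 ± 1.33% in HKII+/- and 2.71 ± 0.589% in HKII+/+ hearts. The wide spread of the HKII+/- shares of Pfkfb2, Pfkfb3 and Pfkfb4 came with the library labelled replicate 11, where Pfkfb2 held 56.7% and Pfkfb3 32.5%. The spread of Pfkfb1 did not, with an SD of 2.18 points when replicate 11 was left out. Without the marked libraries Pfkfb3 held 7.95 ± 1.99% in HKII+/- and 7.90 ± 1.59% in HKII+/+ hearts (SD, n = 5 each). Exact two-sided permutation tests of the 7 shares over 924 splits gave p-values between 0.355 (Pfkfb3) and 0.931 (Pfkfb4), where the smallest possible p is 0.00216. Over the 252 splits of the unmarked libraries they lay between 0.294 (Pfkfb4) and 0.984 (Pfkfb3).

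**Figure D3:**
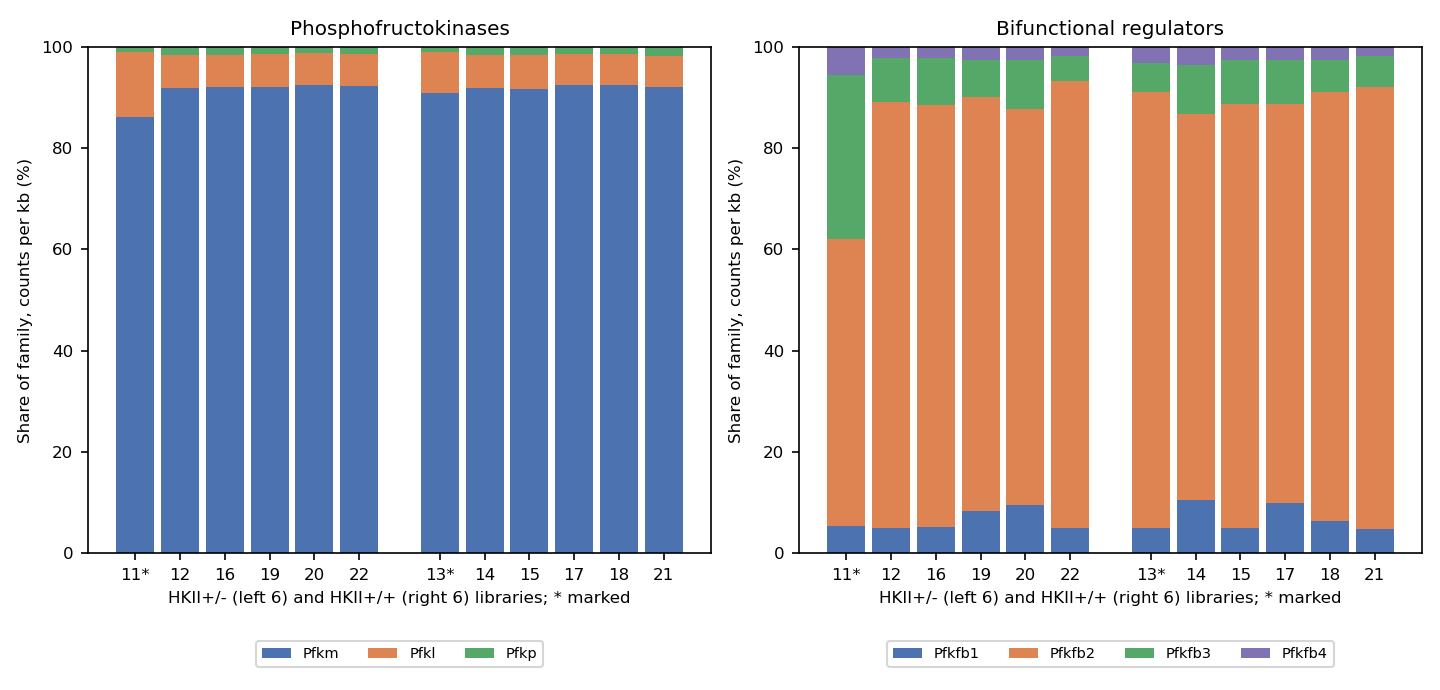
Share of each gene in the summed counts per kilobase of its family (vertical axis, percent), for the phosphofructokinases and the bifunctional enzymes, 1 bar per library with HKII+/- at the left and HKII+/+ at the right of each panel. Pfkm fills 91.7% to 92.5% of the bar in the unmarked libraries, and HKII+/- replicate 11 stands apart with 86.2% Pfkm and 32.5% Pfkfb3.

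The balance of the families was similar in the genotypes and different in the marked libraries. The summed Pfkfb level was 9.56 ± 1.55% of the summed phosphofructokinase level, per kilobase, in unmarked HKII+/- and 9.92 ± 1.18% in unmarked HKII+/+ hearts (SD, n = 5 each). It was 2.87% in the library labelled HKII+/- replicate 11 and 2.69% in HKII+/+ replicate 13. Fbp2 was 3.83 ± 0.377% of the phosphofructokinase level in unmarked HKII+/- and 3.90 ± 0.349% in unmarked HKII+/+ hearts, against 1.83% in the library labelled HKII+/- replicate 11 and 2.13% in HKII+/+ replicate 13.

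Most members left the unmarked range in the marked libraries, as most genes did. In the library labelled HKII+/- replicate 11, Pfkm, Pfkl and Pfkfb3 lay above the range of the 10 unmarked libraries and Pfkfb1, Pfkfb2 and Fbp2 below it, while 84.9% of 14107 genes lay outside. In HKII+/+ replicate 13, Pfkm, Pfkl and Pfkp lay above and Pfkfb1, Pfkfb2, Pfkfb3 and Pfkfb4 below, while 79.5% of genes lay outside. Pfkl stood at 3.07 times the unmarked median in replicate 11 and 2.67 times in replicate 13, and Pfkfb2 at 0.305 times in replicate 11 and 0.587 times in replicate 13. Some members' places depend on the trimmed-mean factor of the marked libraries. Without it, Pfkm in replicate 11 (1502 CPM) lay inside the unmarked range (1293 to 1652 CPM). Pfkp then lay below its unmarked range (77.4 to 101 CPM) in replicate 11 (68.7 CPM) and inside it in replicate 13 (84.6 CPM). Fbp2 in replicate 13 (21.4 CPM) lay below 23.1 to 30.8 CPM. Pfkfb4 in replicate 11 (4.010 CPM) fell just below the lowest unmarked value, 4.015 CPM. The other places were unchanged. Sums of several marker lists stood apart in the same libraries, most of them through only some of their genes. The ventricular sum was above the unmarked range, as given with the depth, carried in both libraries by 4 of the 7 genes, Myh6, Tnnt2, Tnni3 and Myl3; Actc1 lay below every unmarked library in both, and Myl2 and Ryr2 did so in replicate 11. Atrial markers summed to 17007 CPM in replicate 11, with 3 of 6 above the unmarked range, and to 5676 CPM in replicate 13. The fibroblast sum was 12615 CPM in replicate 11 and 3935 CPM in replicate 13, against 951 to 1629 CPM in the unmarked libraries. It was carried by the collagens Col1a1, Col1a2 and Col3a1, while the other 3 of the 6 markers, Dcn, Postn and Pdgfra, lay below every unmarked library in both (Dcn at 78.0 CPM in replicate 11 and 105 CPM in replicate 13, against 356 to 514 CPM). Airway and lung markers summed to 259 CPM in replicate 11 and to at most 1.78 CPM elsewhere; 4 of the 6 lay above the unmarked range there, led by Cyp2f2 at 191 CPM, while Sftpc had 0 counts and Sftpb 4. Fat markers summed to 2204 CPM in replicate 11, with 5 of 6 above the unmarked range, and to at most 772 CPM elsewhere. In the unmarked libraries most of that sum was Fabp4, at 346 to 481 CPM. Adipoq was 267 CPM in replicate 11, against at most 30.2 CPM in the unmarked libraries. The part of these marker genes' tissues in the members' values was not tested.

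**Figure D4:**
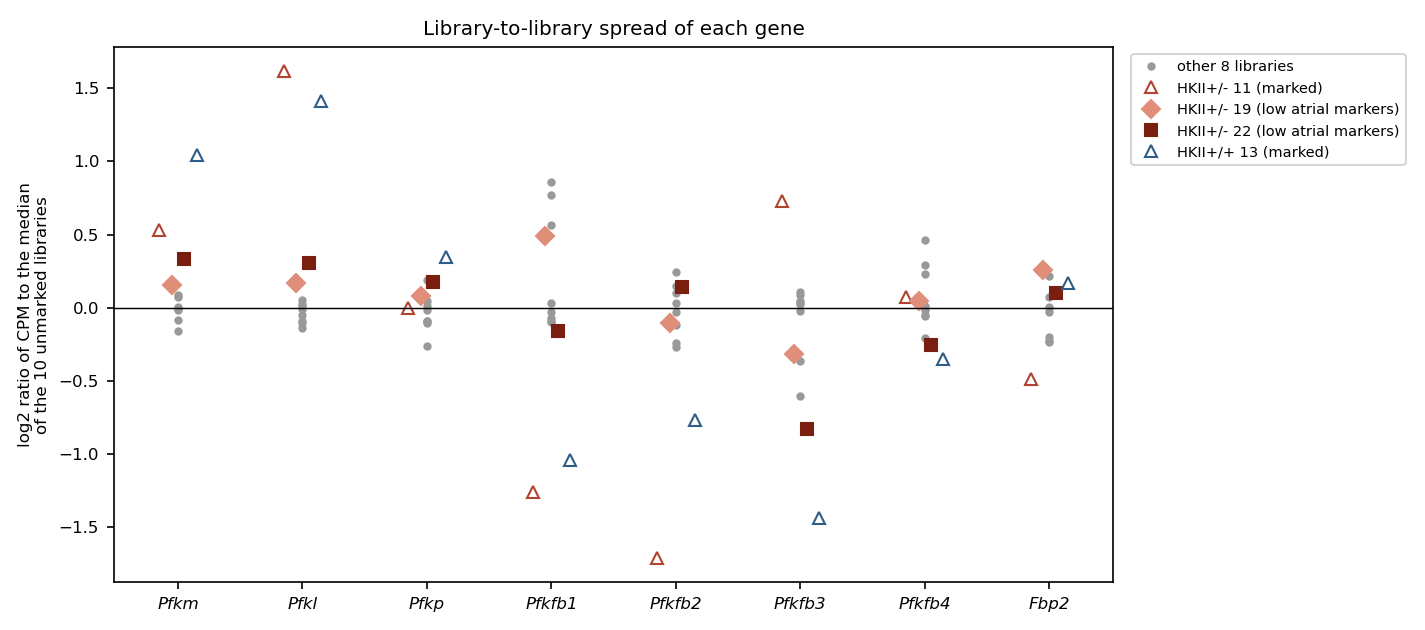
Log2 ratio of each gene's CPM to its median over the 10 unmarked libraries (vertical axis), 1 point per library, with the marked libraries as open triangles and HKII+/- replicates 19 and 22 as filled symbols. Pfkl is 1.62 (replicate 11) and 1.41 (replicate 13) above its median, and Pfkfb3 parts the marked libraries at 0.73 in replicate 11 and -1.44 in replicate 13.

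Among the unmarked libraries of both genotypes together, the SD of each phosphofructokinase lay near the median of all genes, which were not matched for level. The SD of log2 CPM over 10 libraries was 0.136 for Pfkm, 0.135 for Pfkl and 0.138 for Pfkp, beside a median of 0.142 over all genes tested. Pfkfb2 (0.172), Fbp2 (0.176) and Pfkfb4 (0.222) varied somewhat more. Pfkfb1 (0.398) and Pfkfb3 (0.330) varied most, at percentiles 88.5 and 83.8 of all genes. Genes with the most similar profiles to Pfkfb3 and Pfkfb1 were sought among 10876 genes as the root mean square difference of centred log2 CPM over the 10 unmarked libraries. For Pfkfb3 they were Abcd2 (0.0853), Bmper (0.0892) and Heph (0.0999), beside a median difference of 0.339 over all candidates. For Pfkfb1 they were Sfxn2 (0.233), Abca4 (0.238) and Ccbe1 (0.239), beside a median of 0.393, so the 3 nearest genes lay closer to Pfkfb3 than to Pfkfb1.

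The neighbouring steps of the pathway gave few differences. Among hexokinases and the isomerase, 5 of 6 genes were tested and only Hk2 passed, over the unmarked libraries (log2 fold change -0.80, SE 0.088, adjusted p = 0.0165 in edgeR's test); over 12 libraries it was -0.66 (SE 0.19, adjusted p = 1). With 1 further library left out beside the marked ones, Hk2 lost the call in 7 of 10 fits (without HKII+/- replicate 12, 16, 19 or 20 or HKII+/+ replicate 15, 17 or 18), with log2 fold changes of -0.88 to -0.75 and adjusted p between 0.00106 and 0.0951 over the 10 edgeR fits. Of the enzymes from aldolase to lactate dehydrogenase, 12 of 15 were tested and 0 passed, with 4 higher and 8 lower over 12 libraries and 11 higher and 1 lower over 10. The median log2 fold change of these 12 was -0.057 over 12 libraries and 0.029 over 10. None of 10 kinases that act on Pfkfb2 or Pfkfb3 passed, with a median of -0.032 over 12 libraries and 0.0025 over 10. None of 6 transcription factors of Pfkfb3 and Pfkfb4 passed, with a median of -0.066 over 12 libraries and -0.034 over 10. Tigar, which removes fructose 2,6-bisphosphate without making it, averaged 79.3 ± 17.9 in HKII+/- and 84.9 ± 7.95 CPM in HKII+/+ animals (SD, n = 6 each), and over the unmarked libraries 85.8 ± 9.51 in HKII+/- and 83.0 ± 7.24 CPM in HKII+/+ animals. Its log2 fold change was -0.098 (SE 0.16) over 12 libraries and 0.050 (SE 0.084) over 10, and it did not pass in either. Fbp1, the liver bisphosphatase, had 16 counts over the HKII+/- and 22 over the HKII+/+ libraries and fell below the filter.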

How the data were processed

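Polyadenylated RNA was read as single-end reads of 100 nt, per the labels' protocols. The deposited values are raw whole-number counts per gene symbol; STAR 2.4.0, featureCounts 1.4.4 and GRCm38 are named in the submitters' processing notes, while strand, annotation release and the treatment of multimapping reads are not stated there or in the labels. Counts summed to 17263209 to 51556592 per library, which limits the precision of scarce genes.

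Genotypes came from the sample titles. The counts of all genes were fitted with edgeR 4.0.16 (quasi-likelihood, TMM factors, filterByExpr with a minimum count of 10, no covariate) in R 4.3.3, with Benjamini-Hochberg adjustment over all genes at 0.05. Replicates were checked for duplicate deposits by chi-square (lowest value per degree of freedom 7.03). Isoform shares used counts per kilobase of the GENCODE vM21 exon union and exact two-sided permutation tests. The members and lists were chosen with earlier results of these data known. All 8 members are named, with pathway genes only where they passed an unadjusted p of 0.05, besides Hk2, Fbp1 and Tigar (matched as 9630033F20Rik). The 3 genes most like each of the 2 most variable members were named by profile, and marker lists by their sums, with the leading gene where a sum differed strongly. Promoter sequences came from RefSeq on GRCm38.p6, with 1 or more windows for 8 of 8 members.

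Alternatives were other scaling factors and filters, DESeq2 1.42.0, limma 3.58.1 voom with and without sample quality weights, other length scalings, and leaving out each library, the marked libraries, or these with HKII+/- replicates 19 and 22. Leaving out a further library beside the marked ones, and DESeq2 without them, were added after seeing the data. The fits were first tested on simulated data.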

Additional observations from a re-analysis of the deposited data

Results flagged for a closer look

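Of 30 groups of libraries (8 levels and 7 shares in each genotype), 10 held a library set far from the others: its gap to the nearest one exceeded 0.625 of the group's range, Dixon's limit for 6 libraries. Chance flags about 1 in 20 groups, and values of one library are not independent. All 10 lay in a library the submitters marked. Other tissues' markers in these libraries are given with the results, and their part was not tested.

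In the library labelled HKII+/- replicate 11, Pfkl measured 569.3 CPM, against 168.5 to 229.4 CPM in the other HKII+/- libraries, and Pfkfb2 78.56 CPM, against 213.5 to 284.7 CPM. Its Pfkm share was 86.18%, against 91.87% to 92.49%, and its Pfkl share 12.84%, against 6.247% to 6.547%. Pfkfb2 held 56.7% of the bifunctional pool there, against 78.17% to 88.49% in the others. Pfkfb3 held 32.55%, against 4.752% to 9.804%, and Pfkfb4 5.482%, against 1.872% to 2.534%.

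In HKII+/+ replicate 13, Pfkm measured 2732 CPM, against 1309 to 1408 CPM in the other HKII+/+ libraries. Pfkl measured 494.9 CPM there, against 174.2 to 192.8 CPM, and its share was 8.235%, against 6.048% to 6.71%.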

How the results depend on the processing

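No member passed the threshold under any alternative run. The count of called genes, 0 over 12 libraries, was 2 with voom quality weights (Hk2 and Kbtbd12), 1 without the marked libraries (Hk2), 1 without these and HKII+/- replicates 19 and 22, 3 by DESeq2 without the marked libraries, and 0 to 2 without the marked and 1 further library, where Hk2 lost the call in 7 of 10 fits. No paired analysis was possible because HKII+/- and HKII+/+ libraries share no replicate number. Signs turned as follows; the cause was not tested. Without the marked libraries the log2 fold change of Pfkm was 0.033 (0.036 by DESeq2), of Pfkfb3 -0.045 (-0.038) and of Fbp2 0.0035 (0.0064). With quality weights Pfkl was -0.026 and Pfkfb3 -0.030; without the marked libraries and replicates 19 and 22 Pfkl was -0.093. Share differences turned to 0.0188 points for Pfkm, 1.02 for Pfkfb2 and -0.335 for Pfkfb4 without the marked libraries, and to 0.0233 for Pfkm and -0.287 for Pfkfb4 when replicates 19 and 22 were left out too. Leaving out each of 12 libraries gave log2 fold changes of -0.20 to 0.14 (Pfkm), -0.31 to 0.48 (Pfkl), -0.15 to -0.042 (Pfkp), -0.35 to -0.030 (Pfkfb1), -0.19 to 0.085 (Pfkfb2), 0.11 to 0.44 (Pfkfb3), -0.20 to -0.050 (Pfkfb4) and -0.17 to -0.025 (Fbp2), and share differences of -1.03 to 0.235 (Pfkm), -0.244 to 1.14 (Pfkl), -0.166 to 0.00899 (Pfkp), -1.16 to 0.169 (Pfkfb1), -6.01 to 0.345 (Pfkfb2), 0.412 to 5.97 (Pfkfb3) and -0.438 to 0.284 points (Pfkfb4). With the marked libraries and 1 other left out, log2 fold changes ran from -0.042 to 0.081 (Pfkm), -0.022 to 0.091 (Pfkl), -0.12 to -0.0068 (Pfkp), -0.33 to -0.059 (Pfkfb1), -0.080 to 0.046 (Pfkfb2), -0.14 to 0.088 (Pfkfb3), -0.32 to -0.16 (Pfkfb4) and -0.063 to 0.064 (Fbp2). Pfkp had an unadjusted p of 0.0382 (adjusted 0.706, edgeR) without the marked libraries and replicates 19 and 22, and Pfkfb4 0.013 (adjusted 1, limma) with quality weights. In these fits 1010 of 14378 genes and 671 of 14107 genes had an unadjusted p under 0.05. The lowest counts per library were those of Pfkfb4 (58) and Pfkfb1 (72).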
